A study of Mus musculus with 4 samples.

Results

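The genes described here are 10 mouse liver oxidases and dehydrogenases that handle aldehydes, alcohols, purines and heterocyclic drugs: Aldh1a1, Aldh1a7, Aldh1b1, Aldh2, Aldh3a2, Adh1, Adh4, Aox1, Aox3 and Xdh. They were taken by gene name from the array annotation, which gave 22 probes for the 10 genes out of 56605 probes for 37021 genes. Liver RNA of wild type C57BL/6 mice was hybridised to 4 single-colour Agilent arrays, 1 for each of 4 groups: females given aristolochic acid type I (AAI) at 5 mg/kg/day, females given the corn oil vehicle, males given AAI at 2 mg/kg/day and males given corn oil. The mice were 6 weeks old and were injected into the peritoneum on 5 days a week for 3 weeks. Each array carried equal amounts of RNA from 5 mice of the group mixed into 1 pool, so there was no biological replicate, no test between groups could be made, and no p-value is given. Sex and dose changed together among the AAI pools and cannot be told apart there.

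Alcohol dehydrogenases oxidise alcohols to aldehydes, and aldehyde dehydrogenases carry the aldehydes on to carboxylic acids. Ethanol and retinol both pass along this route in liver. Aldehyde oxidases and xanthine dehydrogenase are molybdenum enzymes that oxidise aldehydes, purines and nitrogen-containing rings of drugs. AAI, a nitro compound from Aristolochia plants, damages kidney and is activated and cleared in part by liver enzymes, and the arrays were made to see how liver RNA answers to it in each sex.

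All 10 genes were measured well above background on all 4 arrays, through 20 of their 22 probes. The remaining pair, 1 of the 4 Aldh3a2 probes and 1 of the 3 Xdh probes, was not well above background on any array and is given no ratio. No spot of a member was an outlier, saturated or replaced. Levels below are log2 intensities after quantile normalization, a gene is read from its brightest probe unless another is named, and a ratio is a difference of 2 such log2 levels. The ± after a ratio is the technical error from the scanner's error model for 1 array against 1 array, and it covers neither mice nor pools. On a single array it was between 0.144 and 0.146 for the brightest probe of every gene. It is thus nearly constant, and with 1 spot a probe it is not a spread measured for these probes. As a second guide, the SD of the ratio between probes of the same gene had a median of 0.25 in the female comparison and 0.24 in the male comparison over all genes with several probes. A gene was called when its ratio reached 2-fold. In pooled tissue, fewer cells of a type and less RNA per cell cannot be told apart.

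Among the 10 genes, AAI-treated females had 1 gene at least 2-fold higher than vehicle-treated females (Aldh1a7) and 0 at least 2-fold lower, where 1.37% of 31682 genes tested were called higher and 3.09% lower. AAI-treated males had 2 genes at least 2-fold lower than vehicle-treated males (Aox1 and Aox3) and 0 higher, where 4.59% of 30539 genes were called lower and 3.51% higher. The median ratio of the 10 genes was 0.14 in females, beside 0.04 over all genes tested, and -0.44 in males, beside 0.00 over all genes. By sign, 7 of the 10 were above 0 in females and 8 of the 10 were below 0 in males. Aldh1a1, Aldh1a7, Aldh1b1, Aldh2, Adh4, Aox1 and Aox3 had ratios of opposite sign in the sexes, and the difference between sexes was not tested. Some of these signs rest on ratios smaller than the technical error of 0.20, namely Aldh2 (0.04 in females, -0.08 in males) and Adh4 in females (0.15). The share of all genes with opposite signs was not computed. The ratio was larger than the median SD between probes for 6 genes in females and for 7 in males. The share of all genes beyond that SD was not computed, so these counts are not set apart from the rest of the array. Male corn oil was the highest array for 5 of the 10 genes (Aldh1a1, Aldh3a2, Adh4, Aox1 and Aox3), and male AAI was the highest for 0. How many of all genes were highest on each array was not computed. Aldh3a2 counts here by its brightest probe alone. Another of its probes was lowest in male corn oil (10.46), and a further one was highest in female corn oil (8.18).

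**Figure D1:**
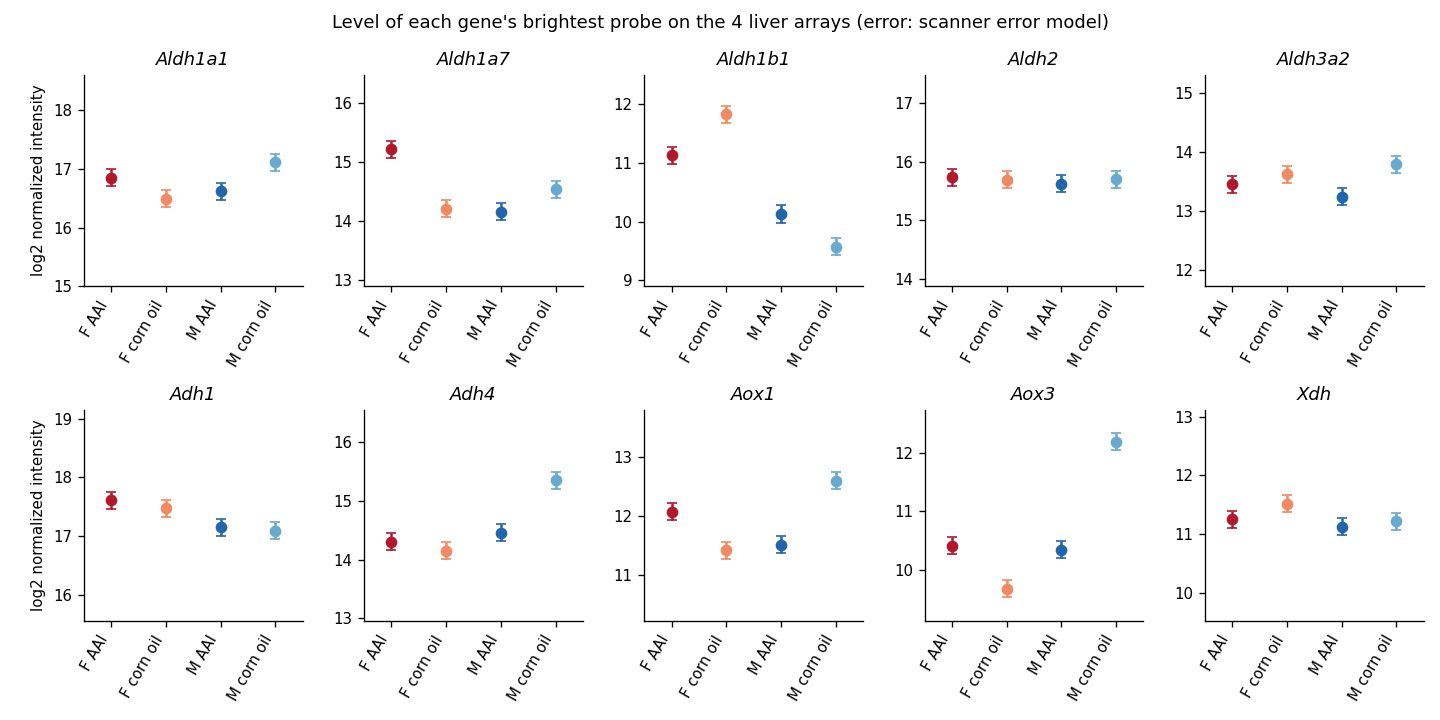
Log2 normalized intensity (vertical axis, every panel spanning the same number of log2 units) of the brightest probe of each of the 10 genes on the 4 arrays, with bars for the scanner error model and 1 pool of 5 mice a point. Male corn oil stands above the other 3 arrays for Aox3, Aox1 and Adh4, the female arrays stand above the male ones for Aldh1b1, and the 4 points of Aldh2 lie within 0.11 of each other.

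Aox3 gave the largest ratio of the 10 genes between male AAI and male corn oil, and Aox1 the next. Aox3, an aldehyde oxidase that is abundant in mouse liver and oxidises many drugs, had levels of 10.42 in female AAI, 9.68 in female corn oil, 10.35 in male AAI and 12.18 in male corn oil. Male corn oil stood alone at the top, and male AAI lay next to female AAI. In scanner units the same probe read 1373, 782, 1260 and 4848 in that order. The ratio of AAI to corn oil was -1.83 ± 0.20 in males, a 3.56-fold lower level, and 0.74 ± 0.20 in females, a 1.67-fold higher level.

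Aox3 had 2 further probes, and all 3 placed the arrays alike to the extent that male corn oil was far above the rest. A probe in the body of the transcript had levels of 8.15 in female AAI, 7.74 in female corn oil, 8.20 in male AAI and 10.14 in male corn oil. The probe for the RNA AK050061 was dimmer, at 6.24, 6.11, 6.14 and 8.85 in the same order. Male ratios of the 3 probes ran from -2.71 to -1.83 (mean -2.16 ± 0.48, SD over 3 probes of the same pools), and their female ratios ran from 0.13 to 0.74. The male difference was therefore seen at each of the 3 probes by at least 3.56-fold, while the female difference passed 1.5-fold only at the brightest probe. The 2 probes designed on the Aox3 RefSeq transcript NM_023617 are shown because the male difference rests on them, in lower case and in the transcript's direction, with their mm9 positions chr1:58245203-58245262 and chr1:58228972-58229031 on the plus strand.
Aox3 probe A_52_P16752: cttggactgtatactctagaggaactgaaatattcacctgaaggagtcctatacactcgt
Aox3 probe A_55_P2589727: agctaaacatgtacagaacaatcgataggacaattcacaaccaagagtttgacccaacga

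Aox1, the second hepatic aldehyde oxidase, had levels of 12.07 in female AAI, 11.42 in female corn oil, 11.52 in male AAI and 12.60 in male corn oil. Male corn oil was again the highest, but female AAI lay between it and the other 2 arrays rather than beside male AAI. Its single probe, at mm9 chr1:58163025-58163084 on the plus strand, gave a ratio of -1.09 ± 0.20 in males (2.12-fold lower) and 0.65 ± 0.20 in females (1.57-fold higher). Aox1 sat close to the threshold in males, where its ratio was -0.98 when arrays were scaled to the 75th percentile, which ended the call. Of the genes well above background on both male arrays, 3.62% had a lower ratio than Aox1.

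Aox1 and Aox3 are neighbours on chromosome 1, and both had their highest level in male corn oil and a ratio below 0 in males and above 0 in females. Their promoters are shown for that reason as the 250 bases before the RefSeq start (build GRCm38.p6, chr1:58029719-58029968 for Aox1 and chr1:58112886-58113135 for Aox3, both plus strand). Capitals mark CCAAT or its reverse complement ATTGG, the letters among 6 motifs searched that were found here.
Aox1 promoter: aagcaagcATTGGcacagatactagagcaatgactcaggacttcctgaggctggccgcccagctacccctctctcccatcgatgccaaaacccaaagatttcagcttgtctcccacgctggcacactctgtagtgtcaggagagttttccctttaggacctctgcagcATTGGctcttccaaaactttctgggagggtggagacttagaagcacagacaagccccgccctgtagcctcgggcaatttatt
Aox3 promoter: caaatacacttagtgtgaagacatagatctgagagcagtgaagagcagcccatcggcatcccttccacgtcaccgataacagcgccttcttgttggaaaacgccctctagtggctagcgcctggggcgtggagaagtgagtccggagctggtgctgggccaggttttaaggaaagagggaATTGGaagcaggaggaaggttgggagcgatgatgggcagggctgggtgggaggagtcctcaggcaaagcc
Aox1 held 2 such matches, the nearer one starting 82 bases before the start, and Aox3 held 1, starting 70 bases before it. A match was present in 33.8% of all 32851 promoter windows of this length. The 2 windows had 128 identical bases of 214 aligned (59.8%), where the pairs among the members' windows ran from 53.5% to 75.9%.

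Xdh, which oxidises hypoxanthine and xanthine to uric acid, stayed within a narrow range. Its levels were 11.25 in female AAI, 11.52 in female corn oil, 11.13 in male AAI and 11.22 in male corn oil. The ratio was -0.26 ± 0.20 in females and -0.10 ± 0.20 in males, and a second probe, over a splice junction, gave 0.15 ± 0.21 and 0.22 ± 0.21. The probes differed in sign in both sexes, and each ratio lay within 0.30 of 0.

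**Figure D2:**
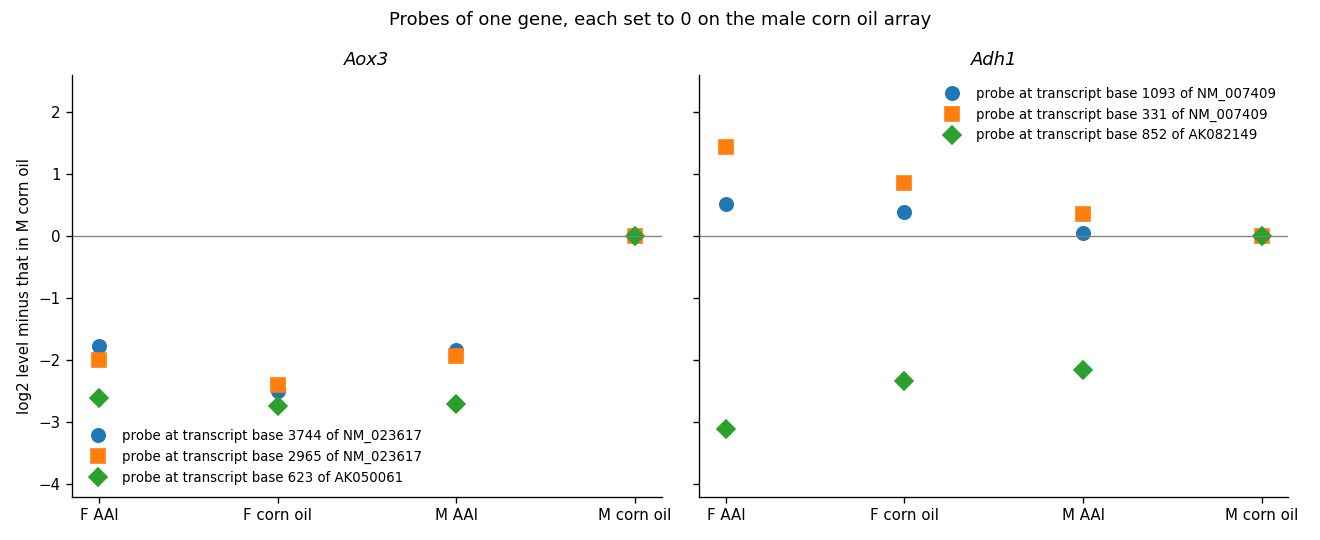
Log2 level of each probe of Aox3 (left) and Adh1 (right) on the 4 arrays, each probe set to 0 on the male corn oil array, with 1 pool a point and no error drawn. All 3 Aox3 probes lie well below 0 on the other 3 arrays, down to -2.73 in female corn oil, whereas the Adh1 probe for AK082149, which lies on the opposite strand, parts from the 2 Adh1 transcript probes.

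The cytosolic aldehyde dehydrogenases Aldh1a1 and Aldh1a7 were higher with AAI in females and lower with AAI in males. Aldh1a1 converts retinaldehyde to retinoic acid, and Aldh1a7 is its close relative encoded beside it on chromosome 19. Aldh1a7 had levels of 15.22 in female AAI, 14.21 in female corn oil, 14.15 in male AAI and 14.54 in male corn oil. Female AAI stood above the other 3 arrays, which lay within 0.39 of each other. Its ratio was 1.01 ± 0.20 in females (2.02-fold higher) and -0.39 ± 0.20 in males (1.31-fold lower). The female call was at the threshold, since the ratio was 0.95 under 75th percentile scaling and 0.98 with the authors' normalized intensities.

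Aldh1a1 had levels of 16.85 in female AAI, 16.49 in female corn oil, 16.61 in male AAI and 17.11 in male corn oil. Male corn oil was the highest and female corn oil the lowest. The ratio was 0.36 ± 0.20 in females (1.29-fold higher) and -0.50 ± 0.20 in males (1.41-fold lower), so both differences were larger than the scanner error and smaller than 1.5-fold. Aldh1a1 and Aldh1a7 were each read by 1 probe. The best match between any 2 probes of different members, without gaps, shared 27 of 55 overlapping bases, and the longest run shared by any such pair was 9 bases. Probes were compared only with probes, so whether a probe also reads the transcript of the other gene was not tested.

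The promoters of these neighbours are printed because they were the most alike of the members' windows, with the same meaning of capitals and with TATAAA also marked (GRCm38.p6, chr19:20601718-20601967 on the plus strand for 1 of 2 Aldh1a1 starts and chr19:20727557-20727806 on the minus strand for Aldh1a7).
Aldh1a1 promoter: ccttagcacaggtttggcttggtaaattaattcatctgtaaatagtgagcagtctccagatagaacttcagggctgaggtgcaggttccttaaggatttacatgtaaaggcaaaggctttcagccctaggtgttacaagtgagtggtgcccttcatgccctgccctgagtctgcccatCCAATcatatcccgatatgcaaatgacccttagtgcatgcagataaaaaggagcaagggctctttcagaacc
Aldh1a7 promoter: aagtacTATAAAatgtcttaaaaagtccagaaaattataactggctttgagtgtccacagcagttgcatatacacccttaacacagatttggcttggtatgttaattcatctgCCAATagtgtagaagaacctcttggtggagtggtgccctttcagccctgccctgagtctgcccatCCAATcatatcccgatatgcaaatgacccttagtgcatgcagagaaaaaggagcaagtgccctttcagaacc
They had 176 identical bases of 232 aligned (75.9%), and 109 of 117 over the 120 bases nearest the start. A CCAAT began 72 bases before the start in both windows. Aldh1a7 had 1 more CCAAT, 137 bases before the start, and a TATAAA 244 bases before it, letters that 12.4% of all promoter windows hold on either strand.

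The mitochondrial enzymes Aldh1b1 and Aldh2, which both oxidise acetaldehyde, had unlike patterns. Aldh1b1 had levels of 11.13 in female AAI, 11.83 in female corn oil, 10.13 in male AAI and 9.57 in male corn oil. Both female arrays were above both male arrays, and it was the only one of the 10 genes with a female ratio below 0 and a male ratio above 0. The ratio was -0.70 ± 0.20 in females (1.62-fold lower) and 0.56 ± 0.21 in males (1.47-fold higher). The female value was -0.32 with normexp background correction and -0.34 without the scanner software's multiplicative trend correction.

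Aldh2, which clears most of the acetaldehyde made from ethanol, had levels of 15.73 in female AAI, 15.69 in female corn oil, 15.62 in male AAI and 15.70 in male corn oil. It had the narrowest range of the 10 genes, 1.08-fold between its highest and lowest arrays. Its ratio was 0.04 ± 0.20 in females and -0.08 ± 0.20 in males. Over its 4 probes the ratio had a mean of 0.11 ± 0.11 in females and 0.11 ± 0.16 in males (SD, 4 probes), from -0.08 to 0.25 in all.

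Aldh3a2, the fatty aldehyde dehydrogenase of the endoplasmic reticulum, had levels of 13.46 in female AAI, 13.62 in female corn oil, 13.24 in male AAI and 13.79 in male corn oil. The ratio was -0.16 ± 0.20 in females and -0.55 ± 0.20 in males (1.47-fold lower). Its probes did not give 1 direction. A probe further up the same transcript read 11.49, 10.86, 10.72 and 10.46 in that order of arrays, with ratios of 0.63 ± 0.20 in females and 0.26 ± 0.20 in males. The third, spanning a splice junction near the start, gave -0.49 ± 0.21 and -0.30 ± 0.21. The SD over the 3 probes was 0.58 in females and 0.42 in males, above the median between probes of a gene.

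Adh4, a class II alcohol dehydrogenase of liver, had levels of 14.30 in female AAI, 14.15 in female corn oil, 14.46 in male AAI and 15.35 in male corn oil. Male corn oil stood apart, and the other 3 arrays were close together, within 0.31. The ratio was -0.89 ± 0.20 in males (1.85-fold lower), short of 2-fold, and 0.15 ± 0.20 in females. Its 250 bases before the RefSeq start held 2 matches of TGACCT, as AGGTCA on the gene's strand, which 14.0% of all windows hold on either strand, and Aldh3a2 had 1 CACGTG, which 6.02% hold. The motifs TTCNNNGAA and TGACNNNGC, found in 7.02% and 10.2% of windows, were not found in any of the 9 members' windows, which covered 8 of the 10 genes.

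Adh1, the main ethanol-oxidising class I alcohol dehydrogenase, had levels of 17.61 in female AAI, 17.48 in female corn oil, 17.15 in male AAI and 17.10 in male corn oil. Females were above males, and AAI and corn oil lay together within each sex. The ratio was 0.13 ± 0.20 in females and 0.05 ± 0.20 in males. A second probe on the transcript, across a splice junction, had levels of 15.39, 14.81, 14.32 and 13.96 in the same order and wider steps, with ratios of 0.58 ± 0.20 in females and 0.36 ± 0.20 in males.

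A further probe that the array names Adh1 behaved otherwise, and its orientation was opposite to that of the other probes of the gene. It was designed on the RNA AK082149 and maps to mm9 chr3:137945024-137945083 on the minus strand, inside the interval chr3:137943475-137945457 that the junction probe spans on the plus strand. Its levels were 4.42 in female AAI, 5.20 in female corn oil, 5.37 in male AAI and 7.53 in male corn oil. Male corn oil was highest here, while for both transcript probes it was lowest. The male ratio was -2.16 ± 0.27 (4.47-fold lower) and the female ratio -0.78 ± 0.35. Because this probe reads the other strand, it was kept out of the statements on Adh1, although the annotation names it so. Both Adh1 probes are given to show what was measured on each strand, each in its own direction.
Adh1 probe A_55_P2502426, plus strand: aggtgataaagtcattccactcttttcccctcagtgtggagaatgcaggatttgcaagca
Probe A_52_P835985, minus strand: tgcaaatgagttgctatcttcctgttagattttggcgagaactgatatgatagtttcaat

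**Figure D3:**
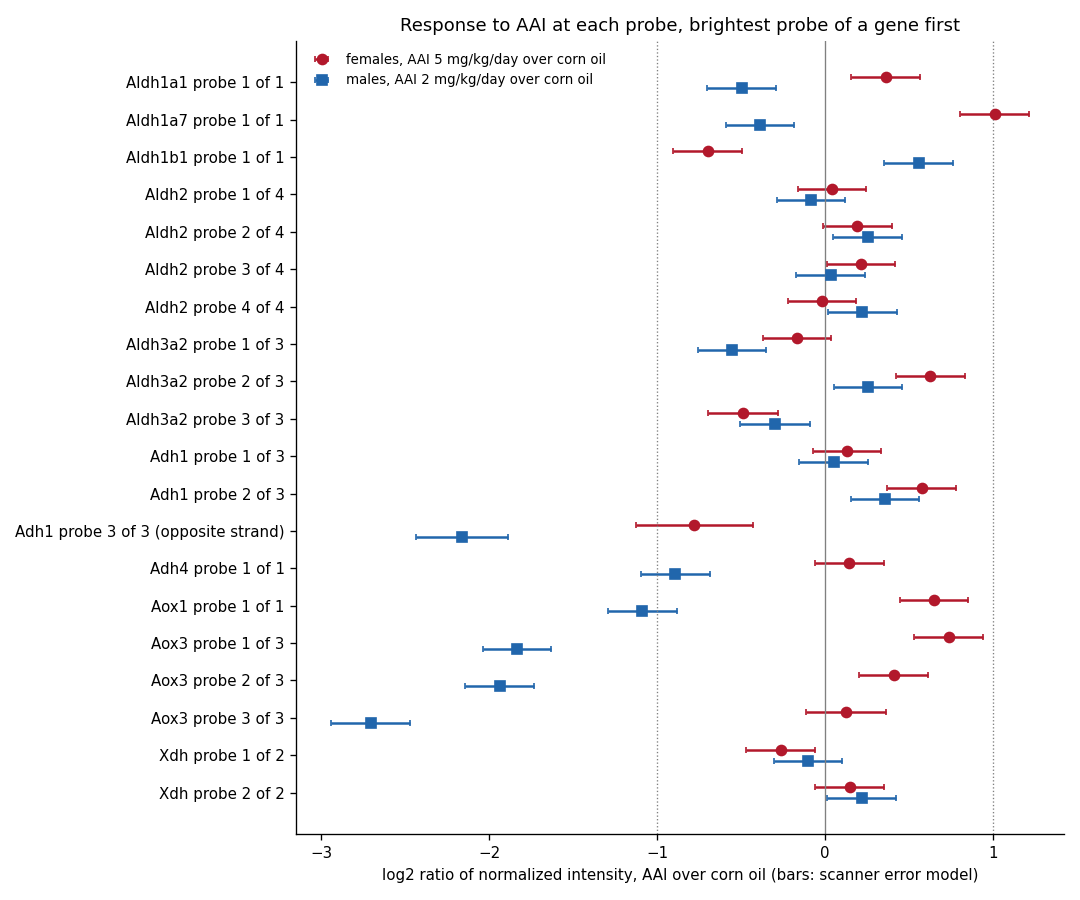
Log2 ratio of AAI over corn oil (horizontal axis) at each of the 20 probes above background, females as circles and males as squares, with bars for the scanner error model and dotted lines at 2-fold. The 3 Aox3 probes and the Aox1 probe lie to the left of -1 in males and to the right of 0 in females, whereas the Aldh2, Xdh and Adh1 transcript probes stay within 0.58 of 0.

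In vehicle-treated mice, 3 of the 10 genes were at least 2-fold lower in females than in males (Adh4, Aox1 and Aox3) and 1 was at least 2-fold higher (Aldh1b1), where 3.83% of 30891 genes were called lower and 1.86% higher. Aox3 gave -2.50 ± 0.20, a 5.67-fold lower level in females, and its 3 probes ran from -2.73 to -2.40. The ratio of Adh4 was -1.20 ± 0.20 and that of Aox1 -1.18 ± 0.20. Under 75th percentile scaling Adh4 gave -0.90, which ended its call. Aldh1b1 was 4.77-fold higher in females (2.26 ± 0.20), above 99.8% of the genes well above background on both corn oil arrays. Aldh1a1 gave -0.62 ± 0.20. Adh1 gave 0.38 ± 0.20, which turned to -0.37 when its probes were averaged with the opposite-strand one, and the other 4 genes lay within 0.33 of 0. Ratios of 8 genes exceeded the median SD between probes, again without the share over all genes. The median over the 10 genes was -0.25, beside 0.03 over all genes.

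Under AAI the same ratio of females to males gave 1 gene at least 2-fold higher (Aldh1a7, 1.07 ± 0.20) and 0 at least 2-fold lower, where 1.17% of 31494 genes were called higher and 3.25% lower. Aldh1b1 was just below the threshold at 0.997 ± 0.20. Aox3 was 0.07 ± 0.20 under AAI, and its 3 probes ran from -0.05 to 0.10, so female and male AAI pools were not separated at any of them beyond the scanner error. The ratio of Adh4 was -0.16 ± 0.20 and that of Aox1 0.55 ± 0.20. By absolute size, 6 of the 10 genes had a smaller ratio between the sexes under AAI than in corn oil (Aldh1a1, Aldh1b1, Adh4, Aox1, Aox3 and Xdh). Of these, Aldh1a1 (-0.62 to 0.23), Aox1 (-1.18 to 0.55) and Aox3 (-2.50 to 0.07) changed sign. It was larger under AAI for Aldh1a7, Aldh2, Aldh3a2 and Adh1. How many of all genes had a smaller ratio was not computed. The ratios between the sexes and the 2 treatment ratios are made from the same 4 arrays and are not independent.

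**Figure D4:**
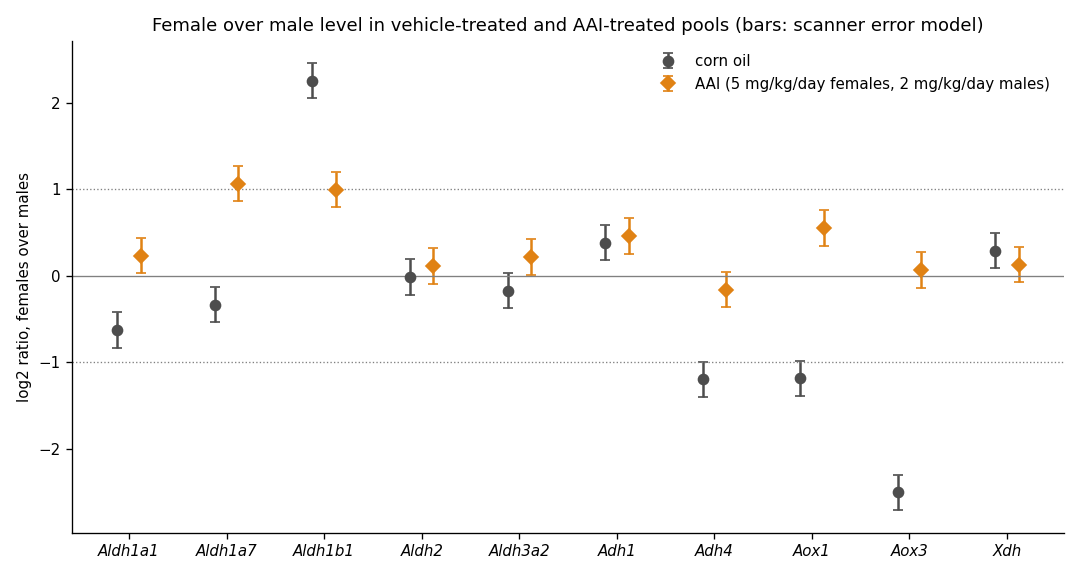
Log2 ratio of females over males (vertical axis) for the 10 genes in corn oil (circles) and under AAI (diamonds, 5 mg/kg/day in females and 2 mg/kg/day in males), 1 array a group, with bars for the scanner error model and dotted lines at 2-fold. Aox3 moves from -2.50 in corn oil to 0.07 under AAI, Adh4 from -1.20 to -0.16, and Aldh1b1 from 2.26 to 0.997.

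The other genes of these pathways were mostly within 2-fold. Among other aldehyde dehydrogenases, 0 of 15 tested were called in females and 2 of 16 in males, both higher, with medians of 0.09 and 0.01. Aldh3b2 was well above background on male AAI alone (5.93), a ratio of at least 1.65 in males. Aldh1a3, another retinoic acid-producing enzyme, gave 1.62 in males at its brightest probe but -1.08 at another. Neither gene had a called female ratio.

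Of 15 other alcohol dehydrogenases and carbonyl reductases, 1 was called lower in females. In males 1 was called lower and 2 were called higher, and the medians were 0.16 in females and 0.07 in males. Adh7, the class IV retinol-oxidising enzyme, was lower in both sexes, with levels of 5.19 in female AAI, 6.26 in female corn oil, 5.64 in male AAI and 6.67 in male corn oil, and ratios of -1.07 and -1.03. Akr1b3, aldose reductase, gave 1.26 in males and 0.16 in females. Akr1b7, an aldo-keto reductase that is also a marker of adrenal cortex, gave 4.85 in males and 0.13 in females.

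Other molybdenum enzymes and the genes that build the molybdenum cofactor had 0 of 9 tested called in females and 0 of 9 in males, with medians of -0.20 and -0.12. Mocos, which adds the sulfur that aldehyde oxidases and Xdh need, had levels of 12.71 in female AAI, 12.95 in female corn oil, 12.25 in male AAI and 12.57 in male corn oil, and this gene was chosen for its role after its values were seen. Purine breakdown and salvage likewise had 0 of 16 called in either sex, with medians of -0.08 in both. At their brightest probes, the genes listed beside Aox1, Aox3 and Xdh for their cofactor and their pathway gave no ratio of AAI to corn oil of 2-fold, although another probe of Adk, adenosine kinase, passed 2-fold in both sexes, with 1.05 in males. Between the sexes, 1 purine gene was called, Nt5e, which makes adenosine from AMP, with 2.18 in corn oil and 1.68 under AAI, higher in females. Adk and Nt5e were named after their values were seen.

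Retinoid metabolism had 1 of 21 genes called lower and 1 called higher in females and 0 called in males, with medians of -0.12 and -0.29. Rdh1, a retinol dehydrogenase, was the lower one, at -1.34 in females and -0.49 in males. Cyp26a1, which degrades retinoic acid, was the higher one, at 1.11 in females and 0.26 in males. Ethanol oxidation and acetate use had 1 of 6 genes called higher in females and 2 of 6 in males, with medians of 0.12 and -0.09. Acss2, which activates acetate in the cytosol, was higher in both, by 1.02 in females and 1.15 in males, and its probes agreed within 0.15. Acss1, its mitochondrial counterpart, gave 3.31 in males and 0.20 in females.

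**Figure D5:**
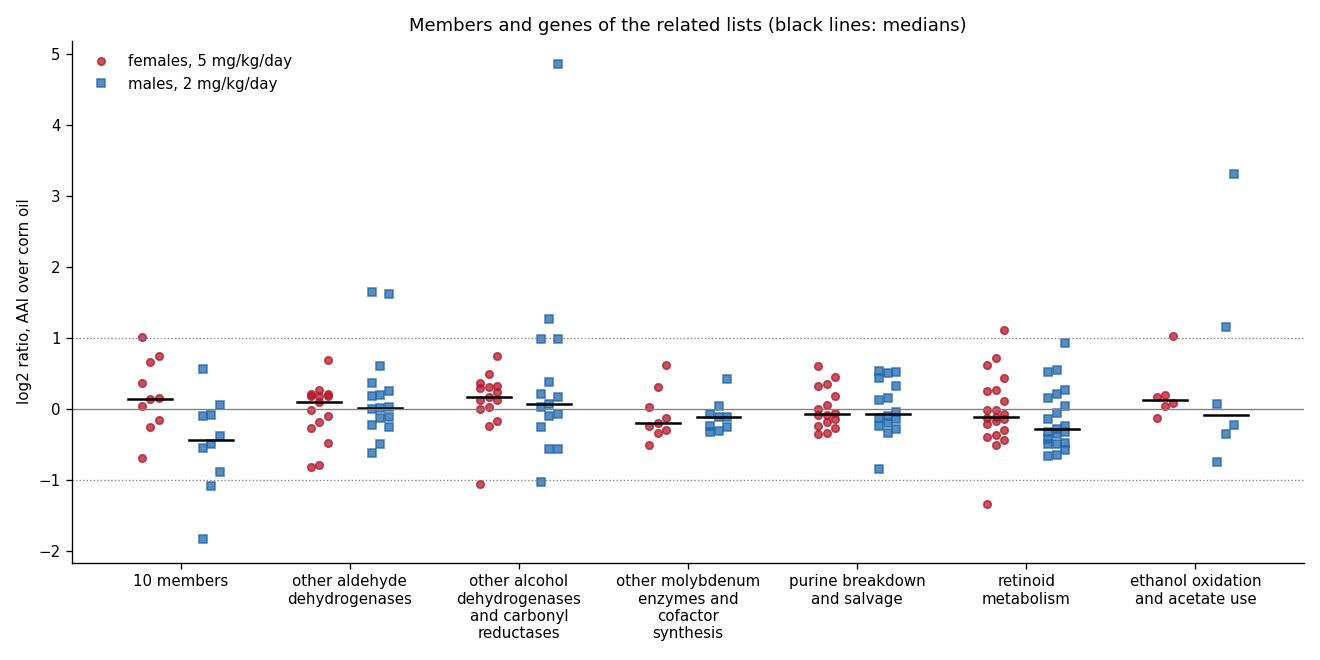
Log2 ratio of AAI over corn oil (vertical axis) for the 10 genes and for the tested genes of 6 related lists, females as circles, males as squares, black lines for medians and dotted lines at 2-fold, with a lower bound plotted where 1 array was not above background. The 10 genes have medians of 0.14 in females and -0.44 in males, and the points above 3 are Akr1b7 and Acss1 in males.

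Markers of the labelled tissue and of others were set beside these values. Of 9 hepatocyte markers, led by Alb and Apoa2, 0 were called for AAI in either sex. Apob, the largest change among them in males, gave -0.94 there and -1.41 for females against males in corn oil. Fgb went the other way, with 0.57 and 0.28. By sign, 6 of the 9 were below 0 and 3 above in males, and 4 were below and 4 above between sexes in corn oil. The summed log2 signal of the hepatocyte markers, between 21.09 and 21.23, was carried by the brightest probes, which quantile normalization holds nearly level. Periportal markers summed to between 19.48 and 19.76 and pericentral ones to between 18.81 and 19.12. Skeletal muscle markers were higher with AAI for 10 of 10 genes in both sexes, with sums of 15.45 in female AAI, 10.37 in female corn oil, 18.45 in male AAI and 12.49 in male corn oil, and Acta1 gave ratios of 8.08 in females and 6.80 in males. In males 7 of 10 adrenal cortex, 4 of 7 adrenal medulla and 7 of 11 fat markers were at least 2-fold higher with AAI. By sign 7 of 7 medulla markers were above 0. Mc2r of the cortex list (-2.07) and Car3 of the fat list (-1.91) were at least 2-fold lower. The adrenal cortex sums were 16.05 with AAI and 13.81 with corn oil in males, and 13.93 and 13.88 in females. In females 3 of 10 fat markers tested were at least 2-fold higher, led by Cfd (3.51), and 0 of 9 cortex markers were called. In corn oil, females were at least 2-fold lower than males for 6 of 11 fat, 6 of 10 adrenal cortex and 8 of 10 skeletal muscle markers. Ucp1, which defines brown fat, was not well above background on either female array and read 12.89 in male AAI. Liver immune cell markers were at least 2-fold lower for 4 of 8 genes in females and 1 of 8 in males. By sign 6 of 8 were below 0 in each sex, with medians of -0.95 in females and -0.54 in males. For kidney markers 0 were called of 7 tested in females and 6 in males. The part of these tissues in the values of the 10 genes, and in those of Akr1b7 and Acss1, was not tested.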

How the data were processed

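Liver RNA was pooled from 5 mice a group and labelled with Cy3. The authors hybridised it to 4 Agilent SurePrint G3 mouse arrays and deposited Feature Extraction 10.5.1.1 files whose intensity values were background-subtracted and, except largely in the female AAI file, corrected for a multiplicative trend. The deposited series table of quantile-normalized intensity values was an alternative, and 0 of its columns lacked a sample. Probe positions are those of the mm9 design annotation.

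Here the processed intensities were taken without control and outlier spots, spots of a probe were averaged, and log2 values were quantile normalized over the 4 arrays. A gene was read from its brightest probe. A call needed a 2-fold ratio and a probe that the scanner software marked above background, at 50% or more of its spots, on 1 or both arrays compared, with the lowest marked signal as a bound where 1 was not marked. Technical errors were propagated from the scanner's error model. The number of arrays, 1 a group, limits the precision. Alternatives were 75th percentile scaling, normexp (limma 3.58.1, offset 50, R 4.3.3), no trend correction, the authors' values, replaced spots left out, probes averaged, other filters and other thresholds. Python 3.11.15, numpy 2.4.6 and pandas 2.3.3 were used, and the calling step was tested on simulated data. Promoters came from RefSeq (GRCm38.p6). The 10 genes and the 15 gene lists were chosen with earlier results of these data known. All members were named, with genes called in either sex from the 6 pathway lists (at most 4 a list), and bright or strongly differing genes from the 9 marker lists.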

Additional observations from a re-analysis of the deposited data

Results flagged for a closer look

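For 5 of the 10 genes the ratio of AAI to corn oil had opposite signs in the sexes and passed a cut in both. How many of all genes met both conditions was not computed, so this count is not set apart from the rest of the array. The cut was the median SD between probes over all genes with several probes, 0.25 in females and 0.24 in males. The 90th percentile of that SD was 0.64 and 0.70, which Aldh1a1 passed in neither sex and Aldh1a7 and Aldh1b1 did not pass in males. Aldh1a1, Aldh1a7, Aldh1b1 and Aox1 had 1 probe each, and the lowest Aox3 probe gave 0.13 in females. With 1 pool a group the difference between sexes was not tested. The female ratio minus the male ratio, in log2 units, was 0.857 for Aldh1a1, 1.40 for Aldh1a7, -1.26 for Aldh1b1, 1.74 for Aox1 and 2.57 for Aox3. The technical error of each difference was 0.29. The females had received 5 mg/kg/day and the males 2 mg/kg/day, so sex and dose cannot be told apart.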

How the results depend on the processing

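Of 240 ratios of the 10 genes recomputed under 8 alternatives, 227 moved by less than the median SD between probes, 13 moved by more, and 0 called ratios changed sign. Many of the 240 could hardly move. The other filters and leaving out replaced spots changed nothing in the members' own spots. Averaging probes changed nothing for the 5 genes with 1 probe. Uncalled ratios changed sign under some alternative for 7 of 30, among Aldh2, Aldh3a2, Adh1 and Xdh. Averaging probes moved Adh1 from 0.05 to -0.58 in males and from 0.38 to -0.37 between sexes in corn oil, since the opposite-strand probe then enters, and Aox3 to -2.16 in males and 0.42 in females. In females, the count of members at least 2-fold higher was 1 and became 0 under 75th percentile scaling, 0 with the authors' normalized intensities, 3 at a 1.5-fold and 0 at a 3-fold threshold, and the count of members lower went from 0 to 1 at 1.5-fold. In males, the count of members lower was 2 and became 1 under 75th percentile scaling and 1 at 3-fold. For females against males in corn oil, the 3 members lower became 2 under 75th percentile scaling, where Adh4 was -0.90, and 1 at 3-fold. Over all genes, normexp gave 343 lower and 139 higher in females (978 and 434 as reported), 643 and 554 in males (1402 and 1071), and 475 and 225 between sexes in corn oil (1184 and 574). Under 75th percentile scaling the female split became 745 lower and 623 higher. Without a filter on dim probes the counts were 1433 and 1078 in females, 2240 and 1793 in males, and 1823 and 1253 between sexes, and the cause of these moves was not tested. The brightest probes of the 10 genes were well above background on all 4 arrays. The female ratio of Aldh1b1 moved from -0.70 to -0.32 with normexp and to -0.34 without the trend correction. With 1 pool a group, the biological spread of the 10 genes is unknown.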
